A study of Homo sapiens with 8 samples.

Results

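ATF4 and CHOP, the protein of DDIT3, are transcription factors that cells use when amino acids run short, when proteins misfold in the endoplasmic reticulum or when translation is otherwise restrained. The group described here holds 10 genes chosen by name, ATF4, DDIT3, TRIB3, ATF3, ATF5, CEBPB, SESN2, CHAC1, DDIT4 and PPP1R15A, and all 10 had a row among the 14870 rows of the authors' deposited table. With the compound ML290, 9 of the 10 were higher, 0 were lower, and ATF5 did not pass the test. Among all rows, 35.1% passed in either direction and 19.5% were higher.

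In the integrated stress response, kinases phosphorylate the initiation factor eIF2, general translation slows, and the ATF4 messenger RNA is translated more efficiently through its upstream reading frames. ATF4 then switches on CHOP, ATF3 and a set of effectors that adjust amino acid supply, growth signalling and redox balance, and PPP1R15A recruits a phosphatase that reverses the first step. Activated stellate cells fold and secrete large amounts of collagen, which loads the endoplasmic reticulum where one branch of this response begins. Because ATF4 is controlled largely at the level of translation, its messenger RNA level is not a measure of its activity.

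The cells were LX-2, an established human hepatic stellate cell line, grown in medium with 2% serum. In the ML290 group, 4 samples received recombinant human TGF-β1 and 5 µM ML290, which activates RXFP1, the receptor for relaxin, for 72 h. In the DMSO group, 4 samples received TGF-β1 and DMSO, the solvent, for 72 h. Every group thus had TGF-β1, at a dose not given in the labels, and no group without it was analysed here. Nothing in the labels says whether the samples of a group were separate cultures, so the p-values may cover technical spread alone.

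Values are the authors' group means, in normalised read counts whose scaling is not stated, and fold changes are the quotient of the means, ML290 over DMSO. The table holds a mean per group and no value per sample, so no SD, SE or overlap between samples stands beside them. The adjusted p is the authors' own, from a test that the sources used here do not name, with a threshold of 0.05. Whether the values were divided by gene length is not stated. The read numbers given below assume that they were not, since low values of different genes shared a common step within a group. Levels are compared between groups and not between genes. A change in the mix of cell states and a change in RNA per cell cannot be told apart in bulk RNA.

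Low values lay on steps worth about 19100000 reads for each ML290 library and 21000000 for each DMSO library, if the values were scaled to 1000000 reads. Of 16 stellate and myofibroblast markers, 13 had a row, and DES and LRAT were among those with none. Of those with a row, 2 were higher and 8 lower, where 19.5% of all rows were higher and 15.6% lower. Their summed mean was 5549.8 in ML290 samples and 8967.2 in DMSO samples. The lower ones included the collagen genes COL1A1, COL1A2 and COL3A1, at 2.34-fold, 2.06-fold and 3.88-fold lower (authors' deposited table). Whether this shift in stellate markers has a part in the results was not tested. Of 8 hepatocyte markers only SERPINA1 had a row, with 1.39 in ML290 samples and 1.63 in DMSO samples, and 2 of 5 cholangiocyte and 3 of 6 endothelial markers had one. ALB, EPCAM, CDH5 and PTPRC, which define hepatocytes, epithelium, endothelium and leukocytes, had none. The 3 of 7 macrophage and leukocyte markers with a row summed to 75.6 in ML290 samples and 40.8 in DMSO samples, most of it CD68, a lysosomal protein that other cells also make, and the part of other cell types was not tested.

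**Figure D1:**
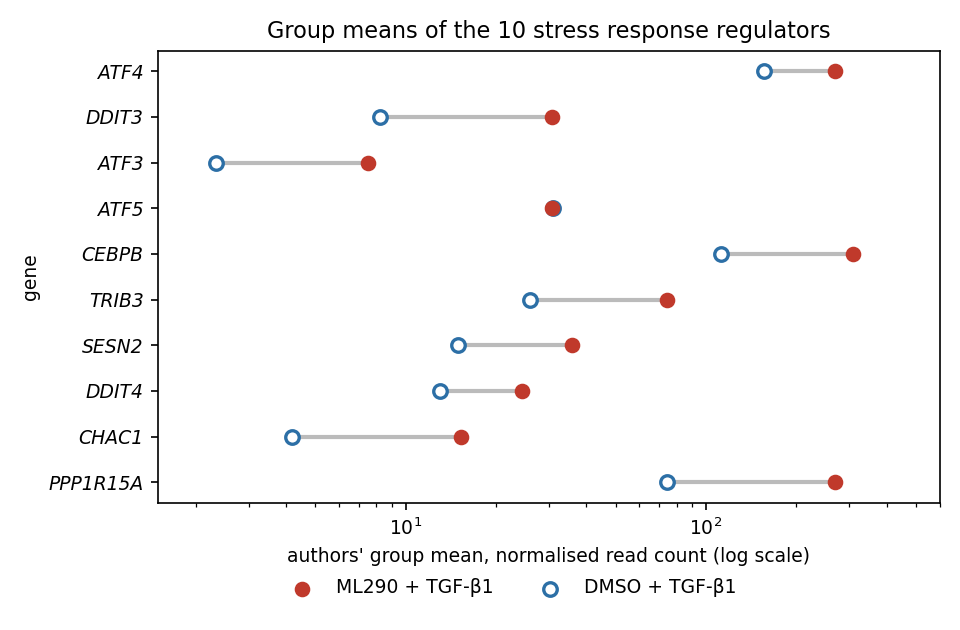
Authors' group means of the 10 regulators, as normalised read counts on a log axis, for ML290 (filled) and DMSO (open), both with TGF-β1 and each a mean over 4 samples. The ML290 mean exceeds the DMSO mean for 9 genes, and the pair nearly coincides for ATF5, at 30.8 in ML290 samples and 30.9 in DMSO samples.

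Among the transcription factors, DDIT3 had the largest change. DDIT3 encodes CHOP, a C/EBP-type factor that ATF4 induces and that is tied to cell death when stress persists. Its mean was 30.8 in ML290 samples and 8.20 in DMSO samples, 3.75-fold higher with an adjusted p of 5.38e-09 (authors' deposited table). Its log2 ratio of 1.91 was exceeded by 58 of all 14870 rows, and by p it stood at rank 14. ATF4 itself, the factor at the head of the group, averaged 269.8 in ML290 samples and 155.5 in DMSO samples, 1.74-fold higher with an adjusted p of 2.69e-07 (authors' deposited table). This was the smallest fold among the 9 higher genes, and 671 rows had a larger log2 ratio.

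ATF3, a factor that many stresses induce and that can repress transcription as a homodimer, averaged 7.48 in ML290 samples and 2.33 in DMSO samples. It was 3.21-fold higher with an adjusted p of 4.21e-06 (authors' deposited table), on about 573 reads over the 4 ML290 libraries and about 196 over the 4 DMSO libraries. CEBPB, a dimer partner of both ATF4 and CHOP that also serves inflammatory gene control, averaged 307.6 in ML290 samples and 112.0 in DMSO samples. It was 2.75-fold higher with an adjusted p of 9.23e-07 (authors' deposited table). ATF5, a close relative of ATF4 that is likewise under translational control, averaged 30.8 in ML290 samples and 30.9 in DMSO samples, a log2 ratio of -0.01 at an adjusted p of 0.909 (authors' deposited table). ATF5 was the only one of the 10 outside the threshold, on about 2355 reads over the ML290 libraries and 2602 over the DMSO libraries.

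Some effectors act on growth signalling. TRIB3, a pseudokinase that binds AKT, ATF4 and CHOP and damps their activity, averaged 73.9 in ML290 samples and 25.9 in DMSO samples, 2.86-fold higher with an adjusted p of 1.13e-08 (authors' deposited table). SESN2, a leucine-binding sestrin that restrains mTORC1 and is also a p53 target, averaged 35.7 in ML290 samples and 14.9 in DMSO samples, 2.40-fold higher with an adjusted p of 5.47e-08 (authors' deposited table). DDIT4, known as REDD1, restrains mTORC1 through the TSC complex, and it averaged 24.3 in ML290 samples and 13.0 in DMSO samples, 1.88-fold higher with an adjusted p of 5.18e-05 (authors' deposited table). All of these brakes on AKT or mTORC1 were therefore higher, and DDIT4 had the largest adjusted p among the 9 genes that passed.

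The remaining effectors act on glutathione and on the response itself. CHAC1 is a γ-glutamylcyclotransferase that degrades glutathione, and it averaged 15.3 in ML290 samples and 4.2 in DMSO samples, 3.65-fold higher with an adjusted p of 4.03e-08 (authors' deposited table). PPP1R15A, known as GADD34, targets protein phosphatase 1 to eIF2 and so ends the translational arrest. It averaged 268.0 in ML290 samples and 73.9 in DMSO samples, 3.62-fold higher with an adjusted p of 1.70e-08 (authors' deposited table). DDIT3, CHAC1, PPP1R15A and ATF3 were the 4 genes more than 3-fold higher.

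As a group, 7 of the 10 regulators passed the threshold at 2-fold or more, against 2.15% of all rows (authors' deposited table). Their median log2 ratio was 1.49, against 0.02 over all rows. The 9 higher genes ranged over log2 ratios between 0.80 and 1.91, and each exceeded the median fold of 1.35 among all rows that were higher. The genes were proposed with results of these data already known, so these counts describe them and are not independent evidence.

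**Figure D2:**
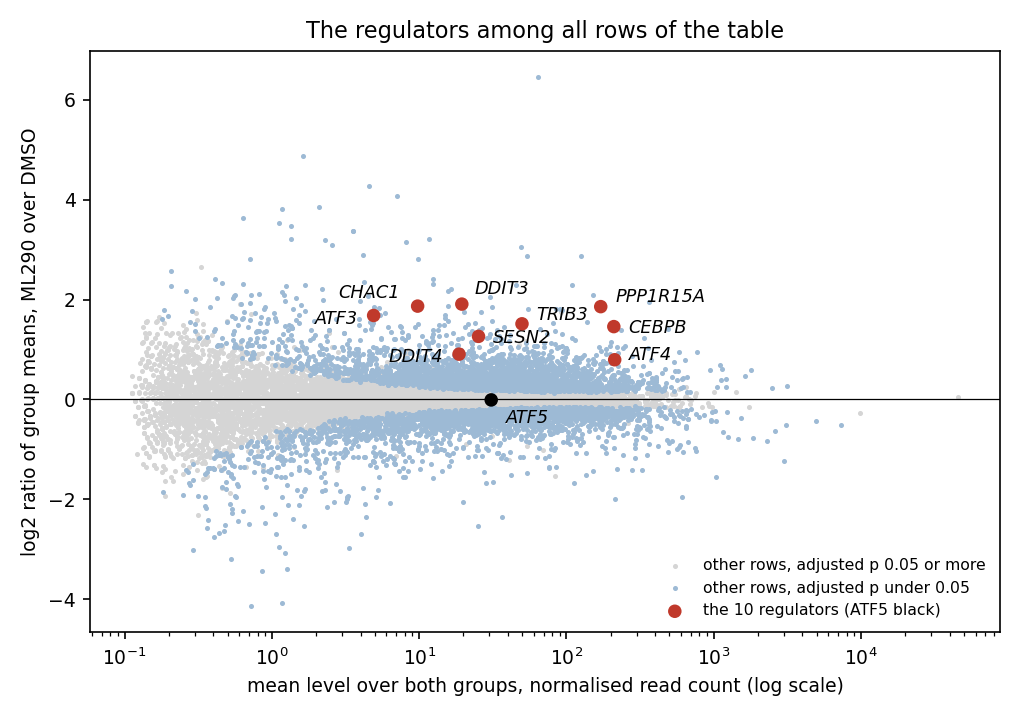
Log2 ratio of group means, ML290 over DMSO, against the mean level over both groups (log axis) for all 14870 rows, with the 10 regulators marked by name. The 9 higher regulators lie between 0.80 and 1.91, at mean levels between 4.91 for ATF3 and 212.7 for ATF4, and ATF5 lies on the zero line.

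The genes with the nearest log2 ratio were looked up for ATF4 and DDIT3, among rows that passed the threshold with a level within 1.5-fold. For ATF4 the nearest of 378 such rows were TBX3, LMAN1 and KDELR2, at 1.76-fold, 1.71-fold and 1.70-fold higher (authors' deposited table). TBX3 is a T-box transcription factor, LMAN1 a cargo receptor on the way to the Golgi, and KDELR2 a receptor that returns proteins to the endoplasmic reticulum. For DDIT3 the nearest of 1066 rows were BIRC3, an inhibitor of apoptosis proteins family member, KITLG, the ligand of the KIT receptor, and CCDC92. BIRC3 was 3.65-fold, KITLG 3.37-fold and CCDC92 3.36-fold higher, at an adjusted p of 1.66e-07, 1.19e-06 and 0.00416 (authors' deposited table). This likeness rests on 2 group means per gene and not on a profile over samples.

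The regulators are compact genes. On GRCh38 with GENCODE 29, 7 of the 10 span less than 6 kb, against 12.9% of the 13942 rows with a unique annotation, and their median span is 4.41 kb against 30.7 kb. Among the 1800 rows that short, 20.9% were higher, near the 19.5% of all rows, and their median log2 ratio was 0.07. ATF4 lies on chromosome 22 from 39519695 to 39522685, CHAC1 on chromosome 15 from 40952962 to 40956519 and DDIT4 on chromosome 10 from 72273920 to 72276036. CEBPB, of a single exon, lies on chromosome 20 from 50190734 to 50192689 and TRIB3 on chromosome 20 from 362835 to 397559. PPP1R15A lies on chromosome 19 from 48872392 to 48876057 and ATF5 on chromosome 19 from 49928702 to 49933935. SESN2 lies on chromosome 1 from 28259527 to 28282491 and ATF3 on chromosome 1 from 212565334 to 212620777. All of these are on the plus strand.

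Some of these loci share exonic sequence with other genes, and the use of strand in counting is not stated, so reads of overlapping genes may not be separated. DDIT3, on the minus strand of chromosome 12 from 57516588 to 57521737, overlaps exons of MARS and MBD6 on the other strand. It also overlaps exons of AC022506.1, a protein-coding gene on its own strand with no row, which counting by strand would not separate. MARS, the methionyl-tRNA synthetase, averaged 142.6 in ML290 samples and 106.6 in DMSO samples and was 1.34-fold higher, and MBD6 was 1.18-fold higher (authors' deposited table), beside the 3.75-fold of DDIT3. ATF5 overlaps exons of NUP62 and IL4I1 on the other strand. NUP62, a nuclear pore protein, averaged 164.1 in ML290 samples and 151.5 in DMSO samples at an adjusted p of 0.158 (authors' deposited table). IL4I1, an amino acid oxidase, averaged 4.40 in ML290 samples and 2.05 in DMSO samples, 2.15-fold higher (authors' deposited table). CEBPB overlaps its antisense transcript CEBPB-AS1, which averaged 0.826 in ML290 samples and 0.873 in DMSO samples at an adjusted p of 0.719 (authors' deposited table). DDIT4 overlaps DDIT4-AS1, which had no row.

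The promoters of the regulators were read for motifs that factors of this group are known to bind, because most of the genes moved together. RefSeq windows on GRCh38.p14, reaching 250 bases before and 50 after each annotated start, were found for all 10 genes, 18 windows in all. The C/EBP-ATF response element, TGATGNAAN on either strand, occurred in 2 of the 18 windows, against 2.00% of 15830 windows of genes in the table. The full cyclic AMP response element, TGACGTCA, occurred in 1 of the 18 windows, against 2.68%. Its core TGACG, on either strand and overlapping the full element, occurred in 5 of the 18, against 31.4%. Windows of the same gene can overlap, and those of ATF4 held the same sites. By gene, the core was in 4 of the 10, against 39.8% of 10912 genes in the table with a window. The C/EBP-ATF response element was in 2 of the 10, against 2.70%, and the full cyclic AMP response element in 1, against 3.67%. The C/EBP palindrome TTGCGCAA was in 0 of the 18 windows, against 0.234%, and the ER stress element (CCAAT, a spacer of 9 bases and CCACG, on either strand) in 0, against 0.114%. A match describes letters in a window and is not evidence of binding, and sequence outside these windows was not read.

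The 250 bases before the start are shown for the windows of CHAC1 and ATF3 that hold the C/EBP-ATF response element, for PPP1R15A with the full cyclic AMP response element, and for the ATF5 start with a TGACG core, since ATF5 did not pass the test. Each is written 5′ to 3′ on the plus strand, the strand of the gene, from RefSeq on GRCh38.p14, with matches to TGATGNAAN, TGACGTCA or TGACG on either strand in capitals. They lie at chr15:40953221-40953470 for CHAC1, chr1:212565157-212565406 for ATF3, chr19:48872171-48872420 for PPP1R15A and chr19:49929995-49930244 for ATF5.
CHAC1: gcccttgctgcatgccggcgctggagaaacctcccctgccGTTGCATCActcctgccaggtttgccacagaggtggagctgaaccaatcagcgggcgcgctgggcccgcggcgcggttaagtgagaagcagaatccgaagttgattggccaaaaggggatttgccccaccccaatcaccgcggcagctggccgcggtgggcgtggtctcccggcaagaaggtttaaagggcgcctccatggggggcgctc
ATF3: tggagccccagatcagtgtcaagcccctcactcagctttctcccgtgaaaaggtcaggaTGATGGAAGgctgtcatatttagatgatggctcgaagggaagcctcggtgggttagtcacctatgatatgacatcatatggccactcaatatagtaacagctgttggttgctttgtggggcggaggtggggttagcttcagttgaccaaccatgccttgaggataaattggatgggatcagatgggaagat
PPP1R15A: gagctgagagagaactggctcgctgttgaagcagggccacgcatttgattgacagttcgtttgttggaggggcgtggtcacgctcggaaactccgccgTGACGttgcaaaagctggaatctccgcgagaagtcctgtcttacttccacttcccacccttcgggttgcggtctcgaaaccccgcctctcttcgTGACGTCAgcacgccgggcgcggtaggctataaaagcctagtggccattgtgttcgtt
ATF5: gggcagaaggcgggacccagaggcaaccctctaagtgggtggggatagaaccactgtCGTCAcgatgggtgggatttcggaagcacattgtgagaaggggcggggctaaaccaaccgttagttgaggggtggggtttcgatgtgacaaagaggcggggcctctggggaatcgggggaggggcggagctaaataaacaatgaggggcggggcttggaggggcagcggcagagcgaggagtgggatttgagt

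In CHAC1 the match begins 210 bases before the start and reads on the opposite strand. In ATF3 it begins 191 bases before the start, in the window of the upstream of 2 starts. PPP1R15A holds a TGACG core 152 bases and the full palindrome 58 bases before its start. CHAC1, ATF3 and PPP1R15A were all more than 3-fold higher, and whether a match goes with a larger fold was not tested. DDIT3, with the largest fold, held no exact match to the motifs in either of its windows, nor did TRIB3, SESN2 or DDIT4. Both DDIT3 windows hold CCAAT, 9 bases and CCACT, which differs from the ER stress element in the last base only. This was seen after the search, and near matches were not counted in any window. ATF4 held 2 TGACG cores on the opposite strand, 160 and 125 bases before its first start, CEBPB held 1 core 57 bases before its second start, and ATF5 held 1 core 193 bases before the start whose window is shown.

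**Figure D3:**
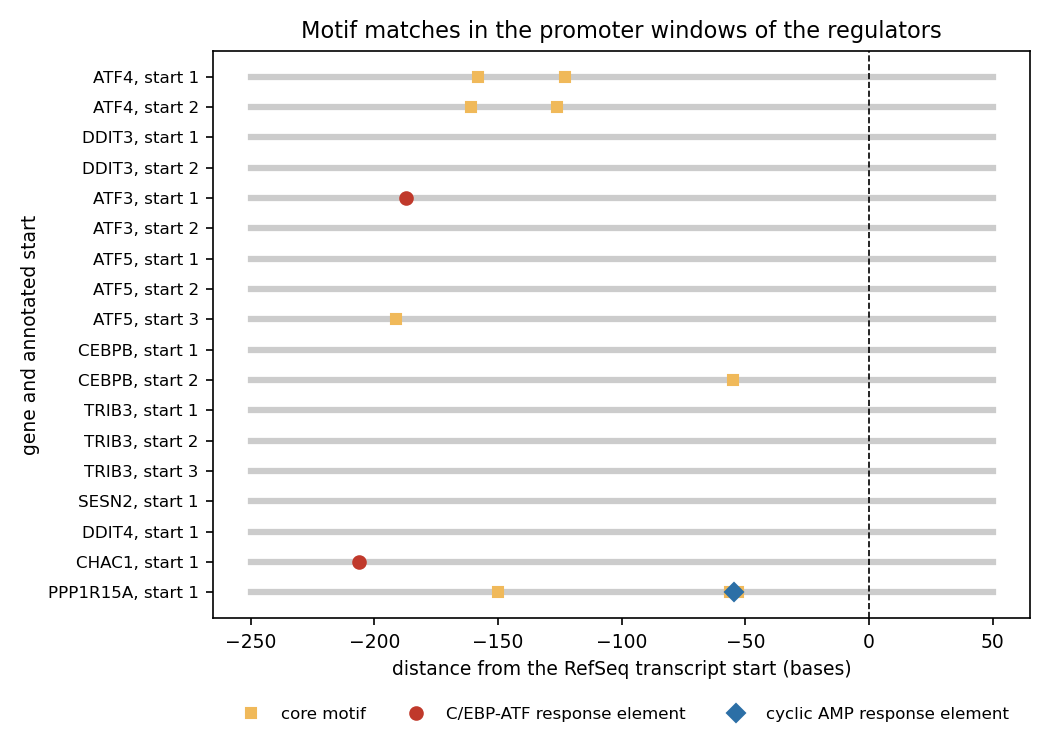
Positions of motif matches, on either strand, in the RefSeq promoter windows of the 10 regulators, in bases from the annotated transcript start. The C/EBP-ATF response element is in a window of ATF3 and of CHAC1, the full cyclic AMP response element is in PPP1R15A, and the core motif TGACG is in ATF4, ATF5, CEBPB and PPP1R15A.

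Upstream of ATF4, the genes that set eIF2 phosphorylation include its kinases, their regulators and its phosphatase. Of the 4 eIF2 kinases, 1 was higher, where 19.5% of all rows were, and this was EIF2AK3, which encodes PERK, the kinase that senses misfolded proteins in the endoplasmic reticulum. EIF2AK3 averaged 33.4 in ML290 samples and 14.6 in DMSO samples, 2.28-fold higher with an adjusted p of 4.23e-07 (authors' deposited table). The other kinases stayed outside the threshold. The amino acid sensor EIF2AK4, known as GCN2, averaged 54.4 in ML290 samples and 56.7 in DMSO samples at an adjusted p of 0.597 (authors' deposited table). The heme-regulated EIF2AK1 averaged 69.6 in ML290 samples and 65.0 in DMSO samples at an adjusted p of 0.220 (authors' deposited table). The double-stranded RNA sensor EIF2AK2, known as PKR, averaged 42.7 in ML290 samples and 41.0 in DMSO samples at an adjusted p of 0.682 (authors' deposited table). These are RNA levels and do not report kinase activity, and whether EIF2AK3 differed from the other kinases was not tested.

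Of 7 regulators of those kinases, 2 were higher and 0 lower, where 19.5% of all rows were higher. The PERK and PKR inhibitor DNAJC3 was 1.32-fold higher and the GCN2 activator GCN1 1.22-fold higher (authors' deposited table). Of 8 subunits of eIF2 and its exchange factor eIF2B, 2 were higher and 1 was lower, where 15.6% of all rows were lower. EIF2S3 was 1.27-fold higher and EIF2S2 1.13-fold higher, while EIF2B3 was 1.21-fold lower (authors' deposited table). Among 4 genes of the eIF2 phosphatase other than PPP1R15A, the constitutive PPP1R15B was 1.21-fold higher at an adjusted p of 0.00660 (authors' deposited table). The catalytic subunit PPP1CC was 1.24-fold lower at an adjusted p of 0.00685 (authors' deposited table).

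The closest relatives of the regulators moved in both directions, with no test of the difference between genes. Of 9 relatives with a row, 2 were higher and 2 lower, where 19.5% of all rows were higher and 15.6% lower. For so few genes, these counts lie near the shares of all rows. Among the tribbles pseudokinases, TRIB1 averaged 40.2 in ML290 samples and 17.2 in DMSO samples, 2.34-fold higher with an adjusted p of 6.85e-08 (authors' deposited table). TRIB2 was 1.23-fold lower with an adjusted p of 0.0185 (authors' deposited table), beside the 2.86-fold increase of TRIB3. The relatives of SESN2, CHAC1, DDIT4 and ATF3 in the list did not pass. The sestrin SESN1 averaged 4.74 in ML290 samples and 5.18 in DMSO samples at an adjusted p of 0.549 (authors' deposited table), and SESN3 had no row. CHAC2, the second cytosolic enzyme of the CHAC1 type, averaged 2.57 in ML290 samples and 3.19 in DMSO samples at an adjusted p of 0.191 (authors' deposited table). The remaining pair were likewise outside the threshold. DDIT4L, the relative of DDIT4, averaged 1.95 in ML290 samples and 1.44 in DMSO samples at an adjusted p of 0.125 (authors' deposited table). The ATF3 relative JDP2 averaged 11.7 in ML290 samples and 10.8 in DMSO samples at an adjusted p of 0.286 (authors' deposited table).

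The C/EBP genes were also divided. CEBPG, a small C/EBP that pairs with ATF4, averaged 55.5 in ML290 samples and 26.8 in DMSO samples, 2.07-fold higher with an adjusted p of 1.23e-07 (authors' deposited table), and CEBPB was higher too. CEBPD, induced in acute inflammation, averaged 23.8 in ML290 samples and 54.4 in DMSO samples, 2.29-fold lower with an adjusted p of 0.000107 (authors' deposited table). CEBPA averaged 0.602 in ML290 samples and 0.299 in DMSO samples at an adjusted p of 0.0504 (authors' deposited table), just outside the threshold.

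**Figure D4:**
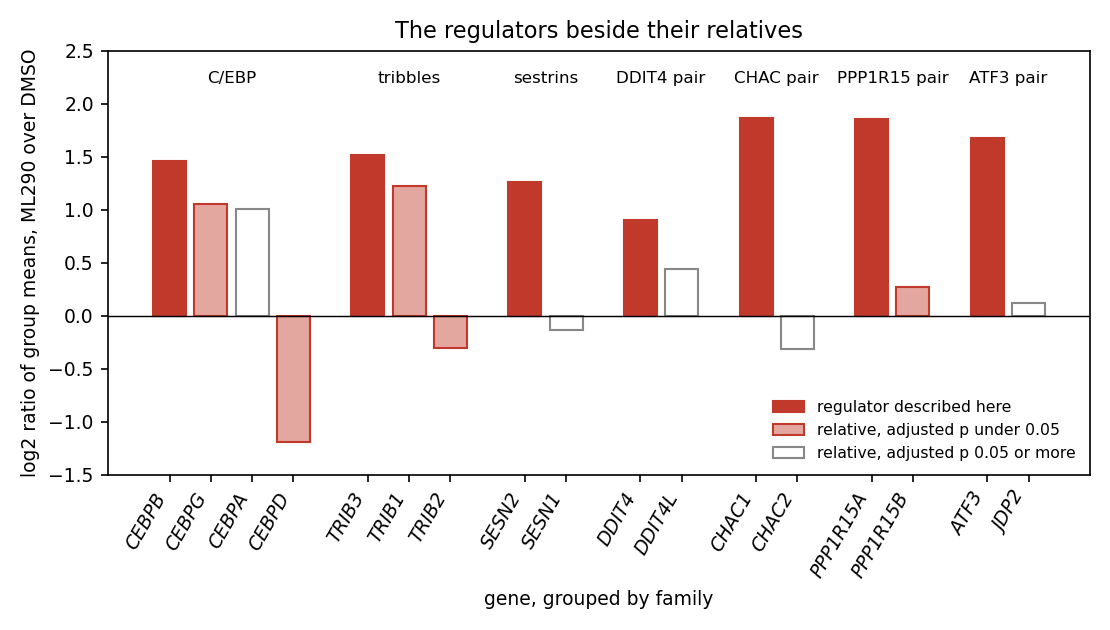
Log2 ratio of group means, ML290 over DMSO, for the regulators with a close relative and for those relatives. TRIB3 and TRIB1 lie above zero together, while CEBPD reaches -1.19 and TRIB2 -0.30.

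Across 23 other C/EBP, ATF, CREB, MAF and related factors with a row, 8 were higher and 3 lower. Shares over all rows were 19.5% higher and 15.6% lower. The median log2 ratio of the 23 factors was 0.14. The small MAF proteins, dimer partners of NRF2 and BACH factors, were among the higher genes, MAFF 2.64-fold, MAFG 2.29-fold and MAFK 1.58-fold (authors' deposited table). CREB3L1, a membrane-bound factor known to promote collagen expression, was 1.47-fold lower (authors' deposited table). NRF2 itself, NFE2L2, averaged 29.4 in ML290 samples and 29.6 in DMSO samples at an adjusted p of 0.951 (authors' deposited table).

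Known targets of ATF4 and CHOP outside the group were mostly higher, where 19.5% of all rows were. Of 19 amino acid transporters and synthetic enzymes with a row, 16 were higher and 0 lower, with a median log2 ratio of 0.50. The cystine transporter subunits SLC7A11 and SLC3A2 were 4.89-fold higher and 3.87-fold higher, and asparagine synthetase, ASNS, 2.59-fold higher (authors' deposited table). The serine phosphatase PSPH averaged 4.83 in ML290 samples and 6.31 in DMSO samples at an adjusted p of 0.0562 (authors' deposited table). Of 13 tRNA synthetase and tRNA export genes, 12 were higher and 0 lower, with a median log2 ratio of 0.41. The smallest adjusted p-values were those of the glycyl-tRNA synthetase GARS, 1.68-fold higher, the isoleucyl-tRNA synthetase IARS, 1.63-fold higher, and the tRNA export receptor XPOT, 1.81-fold higher (authors' deposited table). The leucyl-tRNA synthetase LARS averaged 68.5 in ML290 samples and 62.3 in DMSO samples at an adjusted p of 0.0976 (authors' deposited table).

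Of 19 other targets with a row, 14 were higher and 1 lower, with a median log2 ratio of 0.88. NUPR1, a stress-induced chromatin protein, was 2.61-fold higher, the secreted glycoprotein STC2 2.91-fold higher, and the BH3-only death protein PMAIP1 2.30-fold higher (authors' deposited table). TNFRSF10B, the death receptor DR5 that CHOP induces, was 1.64-fold higher (authors' deposited table). The lower gene was BCL2L11, which encodes the BH3-only protein BIM and is a known CHOP target. BCL2L11 averaged 10.4 in ML290 samples and 15.8 in DMSO samples, 1.53-fold lower with an adjusted p of 0.00141 (authors' deposited table). BCL2, which CHOP is known to repress, averaged 4.12 in ML290 samples and 3.81 in DMSO samples at an adjusted p of 0.537 (authors' deposited table).

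The other branches of the unfolded protein response, through IRE1 and ATF6, were higher in part. Of 20 genes, 13 were higher and 0 lower, where 19.5% of all rows were higher. Their median log2 ratio was 0.33. HERPUD1, which serves the degradation of misfolded proteins, was 2.75-fold higher, and ERN1, which encodes IRE1, 2.81-fold higher (authors' deposited table). XBP1, the factor that IRE1 activates by splicing, was 2.10-fold higher, and the chaperone HSPA5, known as BiP, 1.67-fold higher (authors' deposited table). Other folding genes of the endoplasmic reticulum were divided. DNAJB9 was 2.96-fold, HYOU1 1.23-fold and HSP90B1 1.13-fold higher (authors' deposited table). Among those that did not pass, the log2 ratio was 0.03 for PDIA4, -0.11 for PDIA6 and -0.06 for CALR.

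Among 26 genes of the mTORC1 and AKT pathways, on which SESN2, DDIT4 and TRIB3 act, 7 were higher and 3 lower. Shares over all rows were 19.5% higher and 15.6% lower. The median log2 ratio of the 26 genes was 0.13. The Rag GTPases RRAGD and RRAGC, which bring mTORC1 to the lysosome, were 2.81-fold higher and 1.53-fold higher (authors' deposited table). SEC13 and WDR24, parts of the GATOR2 complex that SESN2 binds, were 1.47-fold higher and 1.43-fold higher, while SEH1L, a further part of it, was 1.20-fold lower (authors' deposited table). MIOS and WDR59, also parts of GATOR2, did not pass, at an adjusted p of 0.894 and 0.247 (authors' deposited table). The kinase AKT2 averaged 139.5 in ML290 samples and 157.4 in DMSO samples, 1.13-fold lower (authors' deposited table).

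Of 8 genes of glutathione synthesis and the γ-glutamyl cycle, the setting in which CHAC1 acts, 2 were higher and 1 lower. Shares over all rows were 19.5% higher and 15.6% lower. The median log2 ratio of the 8 genes was 0.05. The glutathione synthetase GSS was 1.29-fold lower, the γ-glutamyl transferase GGT1 2.05-fold higher and the glutathione reductase GSR 1.14-fold higher (authors' deposited table).

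**Figure D5:**
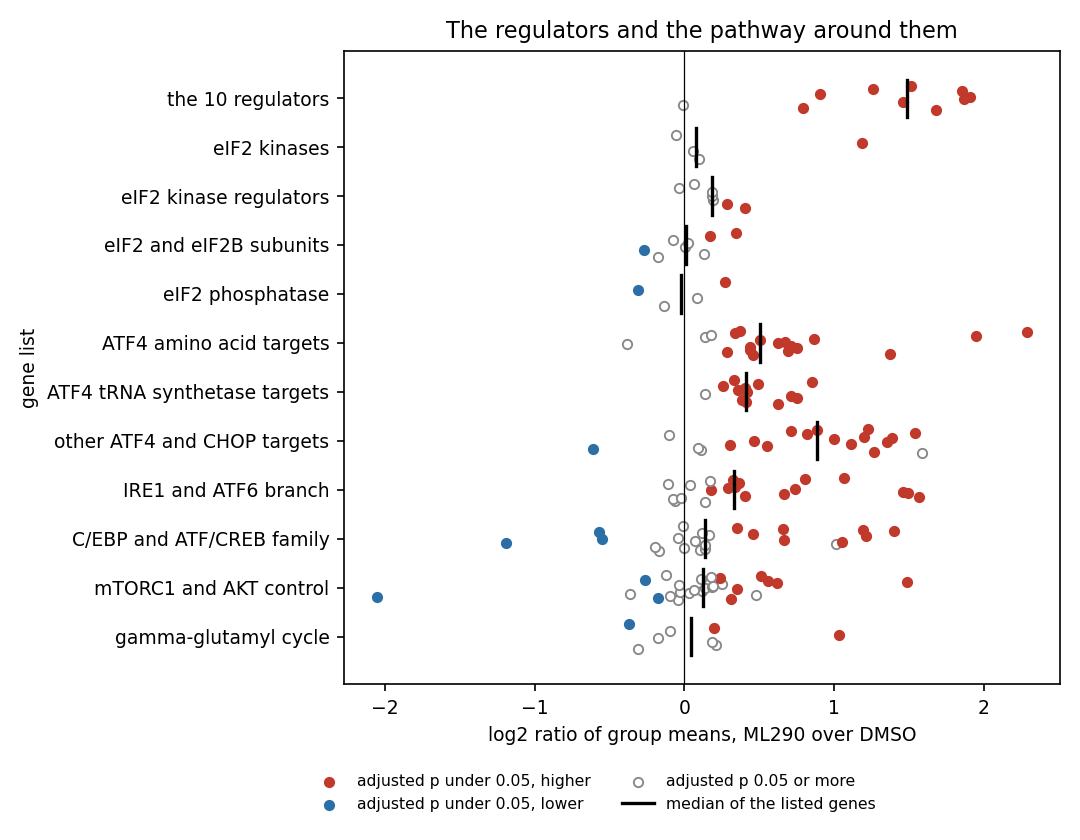
Log2 ratio of group means, ML290 over DMSO, for each gene of the regulators and of the pathway lists, with the median of each list marked. The median of the 10 regulators is 1.49, that of the other ATF4 and CHOP targets 0.88, and those of the eIF2 lists lie between -0.02 and 0.19.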

How the data were processed

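RNA of 8 LX-2 samples, 4 per group, was sequenced. The submitters' processing notes list STAR, Partek and GRCh38, without roles or versions. Not given in the sources used here is how reads were counted, filtered and normalised, or which model gave the p-values. A single table was deposited by the authors. Per the file headers, its group means are least-squares means, a signal in normalised read counts, and the total the authors deposited is 4 times their sum. The ratio and the signed fold are the authors' deposited quotients of those means, and the p-value and step-up adjusted p-value are theirs as deposited. From these came the log2 ratio, the mean level (the total divided by 8), the number of genes under an adjusted p of 0.05 and list medians, with Python 3.11.15, numpy 2.4.6, pandas 2.3.3 and scipy 1.17.1, and figures with matplotlib 3.10.9. The adjustments and the read step were tested on simulated data.

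The read step is the spacing that best fitted the low values, 0.0522 for ML290 and 0.0476 for DMSO over the sum of 4 libraries. Within 0.15 of a whole read lay 91.2% of 377 ML290 values and 94.7% of 341 DMSO values. Intervals per sample need values per sample and were not computed.

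Members and lists were chosen with earlier results of these data known. Named genes are the members and their closest relatives, the 2 to 4 genes with the smallest adjusted p in a list and those against its direction, and the 3 nearest rows for ATF4 and DDIT3. The other eIF2 kinases, GSR, PSPH, LARS, BCL2, NFE2L2, PDIA4, PDIA6, CALR, DNAJB9, HYOU1, HSP90B1, MIOS and WDR59 were named after their values were seen. A few genes that this rule would name are not reported here. Alternatives were other adjustments, thresholds, filters on level, minimum folds, scalings and a pseudocount.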

Additional observations from a re-analysis of the deposited data

How the results depend on the processing

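The count of higher regulators was 9 of 10, with 0 lower, under Bonferroni and Benjamini-Yekutieli adjustment and at an adjusted p under 0.01. The same held at a level of at least 1 and at a fold of at least 1.5. Centring, scaling to group sums and a pseudocount of 1 also left 9 of 10 higher and 0 lower. These rescalings kept the authors' adjusted p, so only a change of sign could have altered a call. The count was 7 of 8 at a level of at least 10, which drops ATF3 and CHAC1, and 7 of 10 at a fold of at least 2, which ATF4 and DDIT4 miss. Of all rows, 3.63% were higher under Bonferroni adjustment, 10.9% under Benjamini-Yekutieli adjustment and 12.9% at an adjusted p under 0.01. The share was 6.01% at a fold of at least 1.5 and 2.15% at a fold of at least 2. It was 22.6% of rows with a level of at least 1 and 26.5% of rows with a level of at least 10. With centring, scaling to group sums or the pseudocount it stayed at 19.5%, where the authors' adjusted p was again kept. The log2 ratio of ATF3 was 1.35 with the pseudocount. Of 24 counts over the pathway lists, 16 were smaller by over 1.5 times under Bonferroni adjustment, 8 under Benjamini-Yekutieli adjustment, 5 at an adjusted p under 0.01, 1 at a level of at least 10, 15 at a fold of at least 1.5 and 18 at a fold of at least 2, and 0 were larger by over 1.5 times in any of the settings run. The 16 higher amino acid genes became 8 under Bonferroni adjustment and 3 at a fold of at least 2, and the 12 higher tRNA genes became 7 and 0. No paired analysis was possible because the table holds group means, and leaving out each replicate in turn was not run for the same reason. Depth limits ATF3 most, at about 196 reads over the DMSO libraries.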
